A study of Mus musculus with 15 samples.

Results

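The receptors described here are 10 genes for G protein-coupled receptors of neuropeptides: the cholecystokinin receptors Cckar and Cckbr, the bombesin-like peptide receptors Grpr and Nmbr, the somatostatin receptors Sstr1, Sstr2, Sstr3, Sstr4 and Sstr5, and the galanin receptor Galr1. They were chosen by gene name, as the probe sets annotated to the listed genes, out of 18193 genes on the array. The choice was also made on measured values, because Cckar was singled out for being low in most Rb/p53 tumours and not in Rb/p53/p130 tumours. Cckar is therefore described without a test. The 10 genes were covered by 17 probe sets, with 4 genes on 1 probe set each and 6 on more than 1.

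Expression had been measured on 15 Affymetrix mouse whole-genome arrays. The 3 Rb/p53/p130 tumours (arrays numbered 11 to 13, Rb Δ/Δ, p53 Δ/Δ and, as the added deletion, p130 Δ/Δ) were dissected from the lungs of mice given Cre-expressing adenovirus by the nose and aged for 6 months. The 10 Rb/p53 tumours (arrays 1 to 10, RbΔ/Δ and p53 Δ/Δ) came from mice given the same virus and aged for 8 to 12 months, so genotype and age cannot be told apart. The 2 normal lungs were whole, tumour-free lungs of wild-type adults that carried no deletion. The virus deletes the genes in whichever airway cells it reaches, and whether each array stands for its own mouse is not stated in the labels, so the p-values cover the spread between these samples alone, which may be technical.

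Neuropeptide receptors sit in the cell membrane and pass the binding of a peptide to G proteins inside the cell. The cholecystokinin and bombesin-like peptide receptors act mainly through Gq, which turns on phospholipase C and releases calcium, whereas the somatostatin receptors and Galr1 act mainly through Gi, which lowers cyclic AMP. In small cell lung cancer, a neuroendocrine tumour, several of these peptides are known as growth factors that the tumour cells make for themselves, and SSTR2 is the receptor that somatostatin analogues bind in tumour imaging.

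The tumours carried the markers of neuroendocrine cells, and 9 of 9 measured markers were higher than in normal lung in both genotypes. Their mean level was 11.33 to 11.64 in the Rb/p53/p130 tumours, 11.18 to 11.98 in the Rb/p53 tumours and 5.33 to 5.78 in the normal lungs, on the log2 scale used throughout. Markers of endothelial (6 of 6), smooth muscle (6 of 6), ciliated (5 of 5) and cardiac muscle cells (5 of 5) were lower in both genotypes. Over all genes, 15.3% were higher and 15.6% lower in Rb/p53/p130 tumours, and 18.3% higher and 20.5% lower in Rb/p53 tumours. Other lists were less uniform, with 1 of 6 fibroblast and 0 of 2 neutrophil markers lower in both genotypes. Macrophage markers were called in both directions. In whole tissue, fewer cells of a type and less RNA per cell cannot be told apart. Rb/p53/p130 tumour 12 stood apart in its hepatocyte markers, whose mean was 11.29 against 6.18 to 8.79 in the other 12 tumours and 5.50 to 5.68 in the normal lungs. The difference between the 3' and 5' control probe sets of Gapdh, a sign of RNA length, was -0.07 to 0.36 in the tumours and 0.72 to 0.88 in the normal lungs, with no overlap.

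The 250 bases before the gene start are shown for Sstr2 and Sstr4, the 2 receptors, of the 9 tested, whose level differed between tumours and normal lung in limma. They are taken from RefSeq, build GRCm38.p6, both on the plus strand, Sstr2 at chr11:113619077-113619326 and Sstr4 at chr2:148395127-148395376. Capitals mark the letters TGACGTCA, the cAMP response element, and CANNTG, the E-box bound by basic helix-loop-helix factors.
Sstr2: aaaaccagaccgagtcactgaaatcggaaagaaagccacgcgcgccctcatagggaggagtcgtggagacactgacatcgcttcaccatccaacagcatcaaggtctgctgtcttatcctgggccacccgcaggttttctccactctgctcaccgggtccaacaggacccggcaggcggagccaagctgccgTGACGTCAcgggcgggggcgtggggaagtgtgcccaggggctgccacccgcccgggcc
Sstr4: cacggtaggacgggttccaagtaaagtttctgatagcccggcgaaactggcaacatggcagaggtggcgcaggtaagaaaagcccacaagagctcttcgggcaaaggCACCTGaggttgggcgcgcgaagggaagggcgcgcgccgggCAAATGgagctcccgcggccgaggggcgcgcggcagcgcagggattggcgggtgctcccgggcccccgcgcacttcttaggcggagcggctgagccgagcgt
The 4 motifs searched on both strands were the E-box, its special case CAGCTG, the cAMP response element and the core TGACG of that element. Which of them to mark was decided after the search. The Sstr2 window held 1 TGACGTCA, which starts 58 bases before the gene start and accounts for both of its TGACG matches, and 0 CANNTG. The Sstr4 window held 2 CANNTG and 0 of the other 3 motifs. Among 32851 promoter windows of the same length, 1.55% held TGACGTCA, 17.8% TGACG, 66.2% CANNTG and 13.0% CAGCTG. Both windows were rich in G and C, with 63.6% and 18 CpG in Sstr2 and 67.2% and 28 CpG in Sstr4, against medians of 52.4% and 6 over all windows. The RefSeq table held a promoter for 6 of the 10 receptor genes, and these matches describe letters and not sites that a factor binds.

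Sstr2, the main somatostatin receptor of neuroendocrine tumours, was higher in the tumours of both genotypes than in normal lung. Its log2 level was 8.13, 7.56 and 8.85 in the Rb/p53/p130 tumours. It ran from 6.72 through a median of 7.42 to 8.15 in the Rb/p53 tumours, and was 5.93 and 5.75 in the normal lungs. All 13 tumours lay above both lungs, and the 2 tumour genotypes overlapped. The log2 difference was 2.34 (SE 0.43, 5.06-fold) between Rb/p53/p130 tumours and normal lung, with a limma adjusted p of 0.000905. It was 1.70 (SE 0.36, 3.26-fold) between Rb/p53 tumours and normal lung, with a limma adjusted p of 0.00207. Without the Rb/p53/p130 tumour rich in hepatocyte markers the first difference was 2.65, with a limma adjusted p of 0.00075. With the Gapdh difference as a covariate both differences kept their size (2.35 and 1.72) and lost the call, at limma adjusted p of 0.227 and 0.334. That covariate did not overlap between tumours and lungs, so the fit can hardly separate it from the contrast, and nothing is read from a lost call.

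Sstr4, a receptor whose mRNA has been found in rat brain and lung, was lower in the tumours of both genotypes on its brighter probe set (1457440_at). That probe set read 5.75, 5.89 and 5.60 in the Rb/p53/p130 tumours. It read 5.42 to 6.18 in the Rb/p53 tumours, with a median of 5.86, and 7.80 and 7.87 in the normal lungs. No tumour came within 1 log2 unit of the lungs. The log2 difference was -2.09 (SE 0.20, 4.25-fold lower) in Rb/p53/p130 tumours and -2.06 (SE 0.17, 4.17-fold lower) in Rb/p53 tumours, with limma adjusted p of 2.76e-06 and 4.01e-07. The other Sstr4 probe set (1422281_at) did not show this, with differences of 0.13 (SE 0.16) and 0.07 (SE 0.14) at limma adjusted p of 0.638 and 0.748, and it lay at or below the dim level described below on 12 of 15 arrays. Averaging both probe sets gave -0.98 and -0.99, still past the threshold. That average carries the difference of the brighter probe set and gives no separate support for it. With the Gapdh difference as a covariate the brighter probe set gave -2.48 and -2.43, past the threshold in limma. Nothing is read from this kept call, since the covariate did not overlap between tumours and lungs. Alveolar type 1 markers were lower beside Sstr4 (5 of 6 in Rb/p53/p130 tumours and 6 of 6 in Rb/p53 tumours). Those of endothelial, smooth muscle and ciliated cells were lower as well, and the part of these cells in the Sstr4 difference was not tested.

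Sstr5, which binds somatostatin and the related peptide cortistatin, had a higher mean in the tumours of both genotypes and did not pass the test. It read 6.70, 6.70 and 6.17 in the Rb/p53/p130 tumours, 5.78 to 6.75 in the Rb/p53 tumours (median 6.19), and 5.50 and 5.83 in the normal lungs. The Rb/p53/p130 tumours lay above both lungs, while the Rb/p53 tumours overlapped them. The differences were 0.86 (SE 0.31, limma adjusted p = 0.0551) and 0.59 (SE 0.26, limma adjusted p = 0.105). The first passed in 9 of 23 alternatives, among them without Rb/p53/p130 tumour 13 (1.04, limma adjusted p = 0.0388) and without Rb/p53 tumour 3, 7, 8 or 9 (0.86, limma adjusted p of 0.0459 to 0.0497).

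The remaining somatostatin receptors and Galr1 were near the bottom of the scale. The table holds no detection calls, so the highest lower quartile of any array, 5.05, served as a dim level, at or below which a probe set is not shown to be above background. Sstr1 lay at or below it on all 15 arrays, and Galr1 on 14, the exception being Rb/p53 tumour 2 at 5.33. Sstr1 differed by -0.18 (95% interval -0.53 to 0.18) in Rb/p53/p130 tumours and by -0.13 (-0.44 to 0.17) in Rb/p53 tumours. Galr1, the Gi-coupled galanin receptor, differed by -0.06 (-0.47 to 0.34) and 0.09 (-0.25 to 0.44). Sstr3, which is known from neuronal cilia, read 5.12 to 5.76 over the tumours and 5.34 to 5.50 in the lungs, with differences of -0.10 (-0.48 to 0.29) and -0.03 (-0.36 to 0.29). Its second probe set leaned the other way, by 0.58 (SE 0.38) and 0.54 (SE 0.32), and passed in neither comparison.

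**Figure D1:**
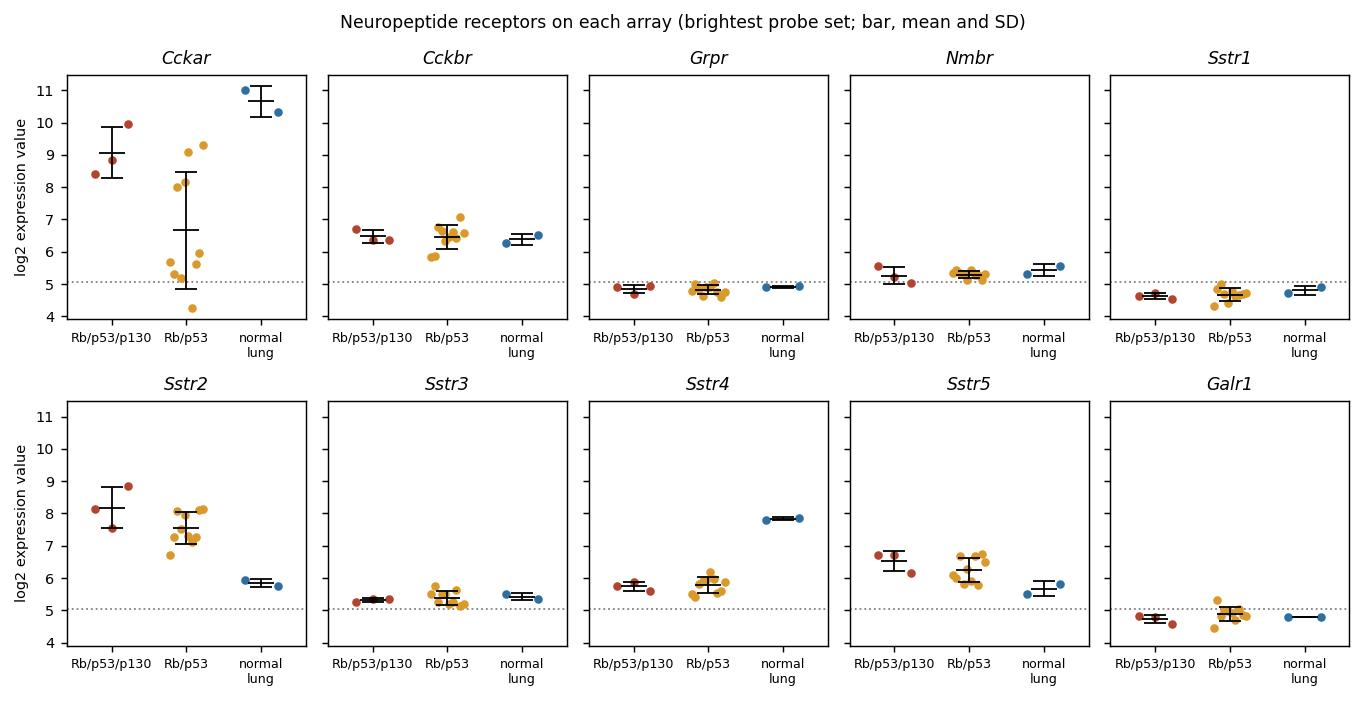
The log2 expression value of each receptor gene on each array, through its brightest probe set, in Rb/p53/p130 tumours (n = 3), Rb/p53 tumours (n = 10) and normal lungs (n = 2). Points are arrays, bars are the mean and SD, and the dotted line is the dim level of 5.05. Sstr2 lies above both lungs and Sstr4 below them in all 13 tumours, and Cckar spreads from 4.25 to 9.94 over the tumours.

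Among the Gq-coupled receptors other than Cckar, 0 of 3 passed the test in limma against normal lung, and their differences were small. Over all genes 30.9% were called in either direction in Rb/p53/p130 tumours and 38.8% in Rb/p53 tumours, and nothing is read from a count over 3 genes. Cckbr, the receptor that binds gastrin and cholecystokinin alike, read 6.36 to 6.70 in the Rb/p53/p130 tumours, 5.85 to 7.06 in the Rb/p53 tumours and 6.27 to 6.51 in the normal lungs. Its differences of 0.09 (95% interval -0.54 to 0.71) and 0.06 (-0.47 to 0.59) did not pass. Nmbr, the neuromedin B receptor, differed by -0.18 (-0.50 to 0.14) and -0.15 (-0.42 to 0.12). Its level was close to the dim level, at 5.02 to 5.57 over all arrays. The second Nmbr probe set lay below the dim level on all 15 arrays and leaned the other way, by 0.20 (SE 0.15) and 0.26 (SE 0.13), and did not pass. Grpr, the receptor of gastrin-releasing peptide, lay at or below the dim level on all 15 arrays, with differences of -0.08 (-0.37 to 0.22) and -0.10 (-0.35 to 0.15). Values at the dim level bound no change in expression, and a p that misses the threshold does not show equal levels.

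Of the 9 receptors other than Cckar, 1 was higher, 1 lower and 7 did not pass in Rb/p53/p130 tumours against normal lung, where 15.3% of all 18193 genes were higher and 15.6% lower. The count was again 1 higher, 1 lower and 7 not passing in Rb/p53 tumours against normal lung, where 18.3% of all genes were higher and 20.5% lower. The shares of receptors are close to these backgrounds. The median difference of the 9 was -0.08 and -0.03, against -0.02 over all genes in either comparison. Both comparisons share the 2 normal lungs.

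**Figure D2:**
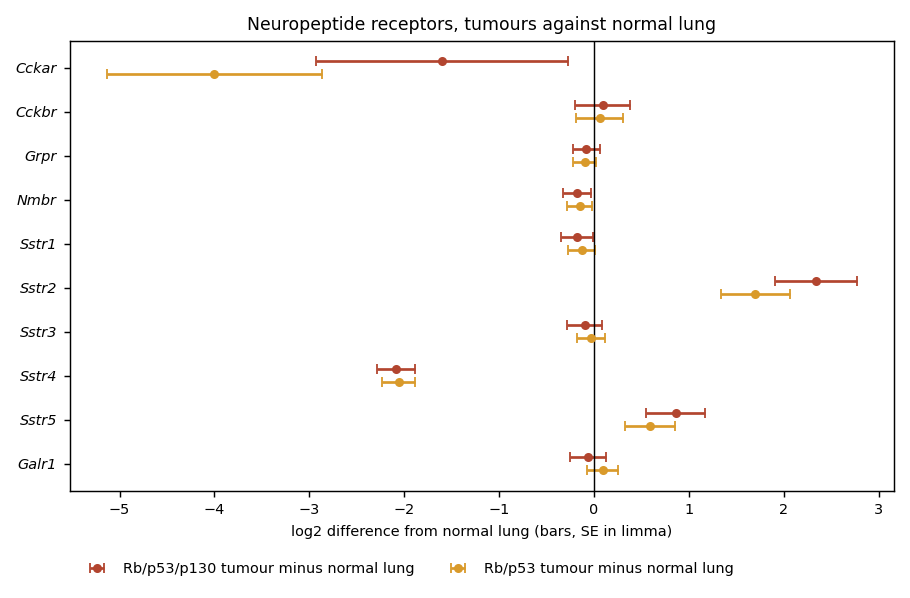
The log2 difference from normal lung for each receptor gene (horizontal axis), for Rb/p53/p130 tumours and below them Rb/p53 tumours, with bars of 1 SE from limma. Sstr2 (2.34 and 1.70) and Sstr4 (-2.09 and -2.06) lie far from 0, Cckar has the widest bars, and the others lie within 1 of 0.

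Cckar, the receptor with high affinity for sulphated cholecystokinin, known from pancreas, gallbladder and vagal neurons, was the receptor that differed most between tumours. Its log2 level was 8.41, 8.83 and 9.94 in the Rb/p53/p130 tumours. In the Rb/p53 tumours numbered 1 to 10 it was 5.69, 5.31, 7.99, 5.20, 8.17, 9.10, 4.25, 5.61, 5.97 and 9.29, and in the normal lungs 11.0 and 10.3. The normal lungs were highest, and 8 of the 10 Rb/p53 tumours lay below the lowest Rb/p53/p130 tumour while 2, numbers 6 and 10, lay among them. The Rb/p53 tumours left a gap of 2.02 between 5.97 and 7.99, with 6 tumours under it and 4 over it, so "low in most" holds for 6 of 10. The SD over the 13 tumours was 1.91, against 0.58 for Sstr2, the next most variable receptor.

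The mean Cckar difference was 2.40 (SE 0.96) for Rb/p53/p130 tumours against Rb/p53 tumours, given without a test because it chose the gene. Against normal lung the mean was -1.60 (SE 1.33) for Rb/p53/p130 tumours and -4.00 (SE 1.13) for Rb/p53 tumours. Without tumour 12 the first of these values was 2.52 and the second -1.48, and without tumour 13 they were 1.96 and -2.04. Markers of pancreatic acinar cells, where Cckar is known to be expressed, had a list mean near the dim level. It was 4.84 to 5.13 in the Rb/p53/p130 tumours, 4.87 to 5.34 in the Rb/p53 tumours and 5.30 to 5.33 in the normal lungs. Of the 5 measured acinar genes, 2 were called lower in each genotype, where 15.6% and 20.5% of all genes were lower. The part of these cells in the Cckar levels was not tested. The other 9 receptors differed between the genotypes by -0.16 to 0.64, the highest being Sstr2 at 0.64 (SE 0.31), which was 0.95 without tumour 12 and 0.30 without tumour 13. Of these 9 receptors, 0 passed between the genotypes in limma and 0 had an unadjusted p under 0.05, where 0.0715% of all genes passed, and nothing is read from that count.

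Markers of airway and alveolar cells varied over the same tumours. Of 19 marker lists looked at, the club cell list was picked for description after its values had been seen beside those of Cckar. The mean of its 5 genes was 11.90, 12.36 and 13.34 in Rb/p53/p130 tumours 11 to 13. It was 11.47, 11.02, 12.40, 11.24, 12.30, 12.83, 10.60, 10.81, 10.92 and 13.01 in Rb/p53 tumours 1 to 10, and 14.49 and 14.48 in the normal lungs. Its first 3 genes, Scgb1a1, Scgb3a2 and Cyp2f2, averaged 14.78, 14.21 and 11.80 in Rb/p53/p130 tumours, 14.41, 12.82 and 10.85 in Rb/p53 tumours and 15.20, 14.66 and 14.70 in normal lungs. Rb/p53 tumours 3, 5, 6 and 10 were the highest of their group in Cckar and in the club cell, alveolar type 1, alveolar type 2 and endothelial lists, and tumour 7 was the lowest in Cckar and in the club cell, alveolar type 1 and endothelial lists. Among the Rb/p53/p130 tumours, number 13 was the highest in Cckar and in the club cell list and the lowest in the other 3 lists. The alveolar type 1 list, which opens with Ager, Hopx and Aqp5, ran from 9.72 to 9.93 in the Rb/p53/p130 tumours, 8.37 to 11.00 in the Rb/p53 tumours and 12.92 to 13.06 in the lungs. The endothelial list, which opens with Pecam1, Cdh5 and Tmem100, ran from 7.07 to 7.57, 6.23 to 8.77 and 11.53 to 12.08 in the same groups. The part of these cells in the Cckar levels was not tested.

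The 5 genes with the highest Pearson r with Cckar over the 13 tumours were Fmo1 (0.979), Ccdc141 (0.972), Pon3 (0.969), Serpinb6b (0.968) and Bmp5 (0.967). Because Cckar falls into separate ranges, these values rest on that split as well as on the order within it. The 5 genes highest by Spearman's rho (Efhc2, Slc4a4, Fgfr3, Sdc1 and Slc4a5, rho 0.962 to 0.978) shared 0 genes with them, so the names depend on the measure. Fmo1, a flavin-containing monooxygenase, read 8.59 to 10.4 in the Rb/p53/p130 tumours, 6.18 to 9.72 in the Rb/p53 tumours and 12.35 and 12.66 in the lungs.

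**Figure D3:**
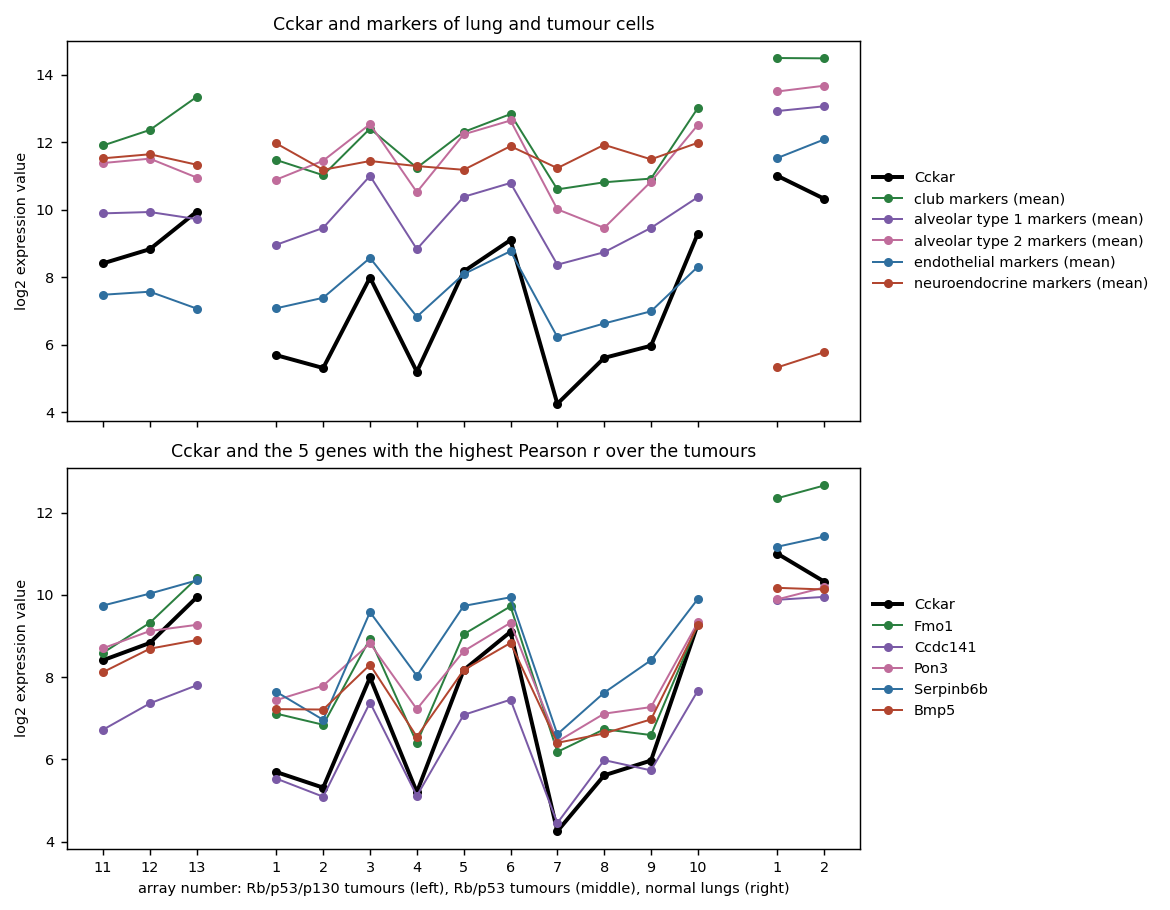
Log2 expression on each array, with Rb/p53/p130 tumours, Rb/p53 tumours and normal lungs from left to right. The upper panel plots Cckar with the mean of 5 marker lists and the lower panel plots it with the 5 genes most like it by Pearson r. Cckar and the club cell mean are both lowest in Rb/p53 tumour 7, at 4.25 and 10.60, while the neuroendocrine mean stays between 11.18 and 11.98 in all tumours.

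Of 7 measured ligand genes, 0 were called in Rb/p53/p130 tumours against normal lung by limma, with 2 at an unadjusted p under 0.05, and 1 was lower in Rb/p53 tumours. These are 0.0% and 14.3% of the ligands, against 30.9% and 38.8% of all genes called in either direction. The lower gene was Gast, which encodes gastrin, at 5.19 to 5.93 in the Rb/p53 tumours and 5.85 and 6.00 in the lungs, groups that overlap. Its difference was -0.45 (SE 0.16, limma adjusted p = 0.0386), and it passed in 15 of 24 alternatives. The limma adjusted p missed the threshold without Rb/p53 tumour 1 (0.0515), 3 (0.0508) or 6 (0.0501) and without Rb/p53/p130 tumour 13 (0.05). Gast also failed with the Gapdh covariate (-0.75, limma adjusted p = 0.303), the replicate block (-0.42, limma adjusted p = 0.293) and the compared groups alone (limma adjusted p = 0.0607). Fits left with 1 lung gave -0.52 without normal lung 1 and -0.38 without normal lung 2. In Rb/p53/p130 tumours Gast differed by -0.43 (SE 0.18, limma adjusted p = 0.102). There it passed in 3 of 23 alternatives, at limma adjusted p of 0.0447 without Rb/p53 tumour 8, 0.0384 with the compared groups alone and 0.0419 with array weights. Grp, which encodes gastrin-releasing peptide, read 6.01 to 8.09 in the Rb/p53/p130 tumours, 5.58 to 9.88 in the Rb/p53 tumours and 5.25 to 6.56 in the lungs. Its differences of 1.29 (SE 1.24) and 1.92 (SE 1.05) did not pass, at limma adjusted p of 0.51 and 0.188. Gal, which encodes galanin, read 7.86, 8.06 and 6.30 in the Rb/p53/p130 tumours, against 5.61 to 7.46 in the Rb/p53 tumours and 6.07 and 6.29 in the lungs, and its difference of 1.23 (SE 0.55) from the lungs did not pass (limma adjusted p = 0.121). It was 1.78 without Rb/p53/p130 tumour 13 (limma adjusted p = 0.0205) and 1.46 with array weights (limma adjusted p = 0.0321), and array weights also called Gal between the genotypes (1.23, limma adjusted p = 0.0331, against 1.00 and 0.389). Cck, which encodes cholecystokinin, differed by 0.54 and 0.58 (limma adjusted p of 0.264 and 0.129), and passed without Rb/p53 tumour 8, at 0.54 (limma adjusted p = 0.045) and 0.46 (limma adjusted p = 0.038). Nmb, Sst and Cort did not pass.

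**Figure D4:**
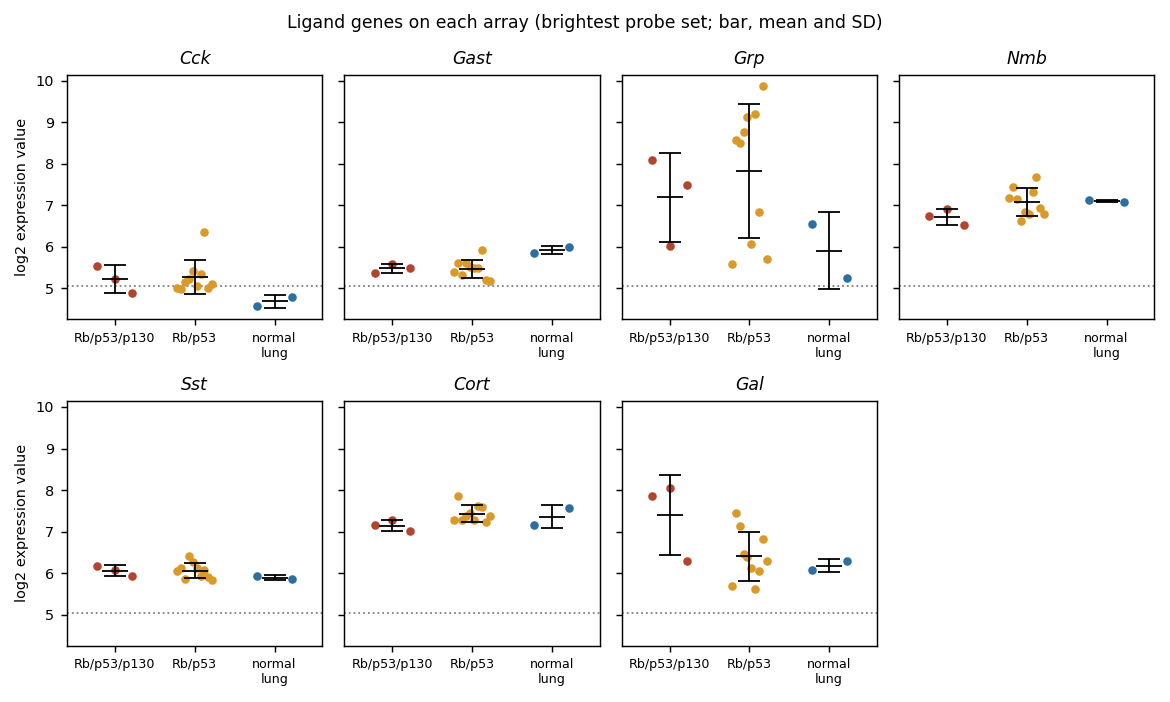
The log2 expression value of each ligand gene on each array, in Rb/p53/p130 tumours, Rb/p53 tumours and normal lungs, with the mean and SD as bars and the dim level of 5.05 dotted. Grp spreads from 5.58 to 9.88 over the Rb/p53 tumours, while Sst stays between 5.83 and 6.41.

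Over the 10 Rb/p53 tumours, 11 receptor and ligand pairs were set side by side. Of these, 2 were not pooled because Cckar and Grp fall into separate ranges, under a gap of over 1 that was set after the values had been seen. Of the 9 tested, Sstr5 with Sst gave the largest correlation, with Pearson r of -0.743 (permutation p = 0.014, adjusted 0.126) and Spearman rho of -0.709 (permutation p = 0.0266, adjusted 0.24). Leaving out the 2 tumours farthest from the Sst median gave r of -0.706. Galr1 with Gal gave r of 0.651 (permutation p = 0.0418, adjusted 0.188) and rho of 0.455 (permutation p = 0.192, adjusted 0.553), and r of 0.578 without the 2 farthest tumours. After adjustment 0 pairs passed, and Galr1 lay at or below the dim level in 9 of the 10 tumours.

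Among the receptors of other neuropeptides, some differed from normal lung by over 4 on the log2 scale. Of 42 measured, 4 were higher and 5 lower in Rb/p53/p130 tumours, and 5 higher and 8 lower in Rb/p53 tumours, with a median difference of -0.10 in both. These are 21.4% and 31.0% of the list, against 30.9% and 38.8% of all genes called in either direction. Npy1r, a neuropeptide Y receptor, averaged 9.64 ± 0.27 in Rb/p53/p130 tumours (SD, n = 3), 8.79 ± 0.82 in Rb/p53 tumours (n = 10) and 6.26 ± 0.89 in normal lungs (n = 2), with limma adjusted p of 0.0012 and 0.00217. Hcrtr1, an orexin receptor, averaged 8.82 ± 0.71, 8.22 ± 1.45 and 4.71 ± 0.12 in the same groups, with limma adjusted p of 0.0109 and 0.0081. The lungs were at or below the dim level there, so the tumours were at least 13.7-fold and at least 9.0-fold higher. Calcrl, the calcitonin receptor-like receptor of endothelial cells, averaged 8.77 ± 0.49, 8.60 ± 1.21 and 13.09 ± 0.21. Its differences of -4.31 and -4.49 come from a suffixed probe set, whose probes can match more than 1 transcript. Without suffixed probe sets they were -0.40 (limma adjusted p = 0.0121) and -0.23 (limma adjusted p = 0.0666), which ends the call in Rb/p53 tumours. Averaging the Calcrl probe sets, the suffixed one included, gave -2.63 (limma adjusted p = 0.000106) and -2.71 (limma adjusted p = 1.21e-05). Ednrb, the endothelin B receptor, averaged 7.58 ± 0.21, 7.36 ± 0.59 and 10.86 ± 0.61. Endothelial markers fell beside both, and their part was not tested.

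Genes that carry the receptor signal onward were called in both directions. Of 15 measured genes of the Gq arm, 1 was higher and 5 lower in Rb/p53/p130 tumours, and 1 higher and 6 lower in Rb/p53 tumours, with medians of -0.59 and -0.65, which makes 40.0% and 46.7% called, against 30.9% and 38.8% of all genes. Plcb3, a phospholipase C that Gq activates, fell by 2.25 (SE 0.48) and by 2.38 (SE 0.41), with limma adjusted p of 0.00298 and 0.00039. Itpr2 and Itpr3, calcium channels opened by inositol trisphosphate, differed by -1.60 and -1.05 in Rb/p53/p130 tumours and by -1.43 and -1.47 in Rb/p53 tumours. Without suffixed probe sets Itpr2 was -0.11 (limma adjusted p = 0.589) and -0.14 (limma adjusted p = 0.381), which ends both calls. Averaging its probe sets, suffixed ones included, gave -0.96 (limma adjusted p = 0.000501) and -0.94 (limma adjusted p = 0.00011), which keeps them. Of 19 genes of the Gi arm, 3 were higher and 4 lower in Rb/p53/p130 tumours, and 5 higher and 4 lower in Rb/p53 tumours, with medians of 0.03 and 0.05, which makes 36.8% and 47.4% called against the same shares of all genes. Adcy1, an adenylyl cyclase known from neurons, was higher by 3.85 (SE 0.44, limma adjusted p = 1.26e-05) and 4.50 (SE 0.37, limma adjusted p = 3.48e-07). Gnai1, an alpha subunit of Gi, averaged 8.33 ± 0.31, 8.03 ± 0.83 and 11.20 ± 0.11, and Adcy8, another adenylyl cyclase, 4.62 ± 0.15, 5.06 ± 1.07 and 7.44 ± 0.57, in the order Rb/p53/p130 tumours, Rb/p53 tumours and normal lungs.

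Of 12 measured genes that switch such receptors off, 2 were higher and 4 lower in Rb/p53/p130 tumours, and 3 higher and 4 lower in Rb/p53 tumours, with medians of 0.19 and 0.41. These are 50.0% and 58.3% of the list, against 30.9% and 38.8% of all genes. Rgs17, which speeds the hydrolysis of GTP on Gi proteins, was higher by 4.07 (SE 0.35, limma adjusted p = 8.35e-07) and 4.42 (SE 0.30, limma adjusted p = 4.91e-08). Grk5, a kinase that phosphorylates active receptors, averaged 8.27 ± 0.27, 8.01 ± 0.43 and 10.35 ± 0.21, and Arrb1, the arrestin that then binds them, 8.49 ± 0.10, 8.29 ± 0.79 and 10.36 ± 0.12, in the same order. The lists above held 0 calls between the genotypes. With the Gapdh difference as a covariate, 2 of the 13 genes named from these lists (Adcy1 and Rgs17) stayed past the threshold in both comparisons and 11 did not. Nothing is read from these kept or lost calls, since the covariate did not overlap between tumours and lungs. Some of the 11 kept about their size, such as Ednrb (-2.92 and -3.15), Gnai1 (-2.64 and -2.96) and Hcrtr1 (4.54 and 3.91) in Rb/p53/p130 and Rb/p53 tumours. Larger moves were those of Plcb3 (-0.84 and -1.04), Grk5 (-0.90 and -1.23), Calcrl (-3.07 and -3.30) and Adcy8 (-4.33 and -3.80). Npy1r (2.67 and 1.86) and Arrb1 (-1.20 and -1.43) moved less. Adcy1 and Rgs17 moved as well, to 4.98 and 5.57 and to 2.70 and 3.12. Without normal lung 1, Npy1r (1.91) and Hcrtr1 (3.59) lost their call in Rb/p53 tumours, and without normal lung 2, Hcrtr1 (3.42), Itpr2 (-1.13), Adcy8 (-1.97) and Arrb1 (-1.99) did. In Rb/p53/p130 tumours Hcrtr1 lost its call without either lung (4.20 and 4.03), and Adcy8 (-2.42) and Itpr2 (-1.30) without normal lung 2. Arrb1 (-1.95 to -1.79) lost it there without any 1 of the lungs or Rb/p53/p130 tumours. Itpr3 (-1.16 to -0.93) lost it without either lung, without Rb/p53/p130 tumour 11 or 12 and without Rb/p53 tumour 2, 4, 5, 6, 8 or 9.

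**Figure D5:**
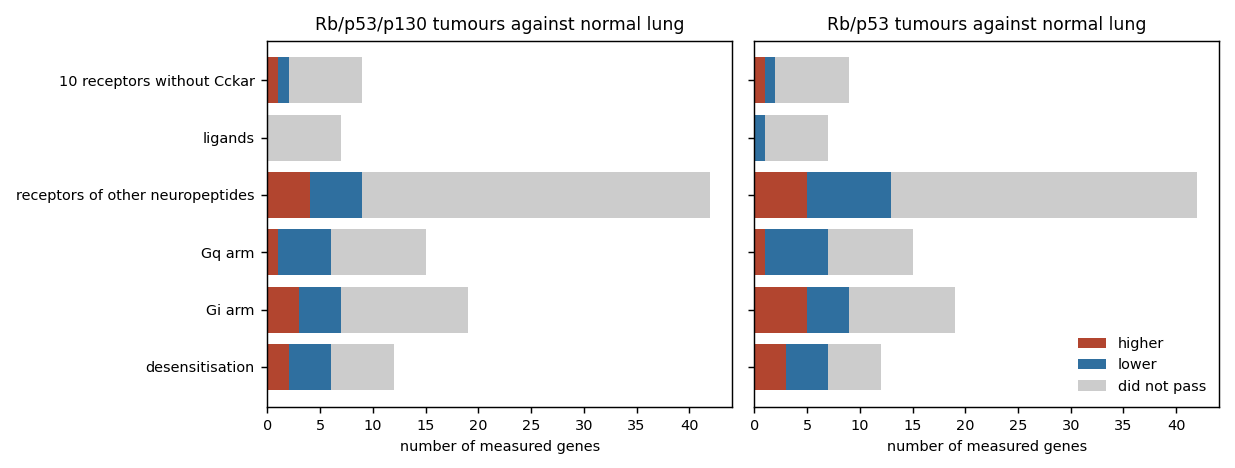
The number of measured genes in each list that were higher, lower or did not pass in limma, for Rb/p53/p130 tumours (left) and Rb/p53 tumours (right) against normal lung. The receptors other than Cckar hold 1 higher and 1 lower gene in either panel, and the 42 receptors of other neuropeptides hold 4 and 5 on the left and 5 and 8 on the right.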

How the data were processed

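Total RNA had been isolated with Trizol and amplified in a pair of rounds with a RiboAmp kit, per the labels' protocols. The authors deposited log2 values of expression, made with RMA (no version stated) per the submitters' processing notes. RMA makes array distributions nearly equal (array medians 6.58 to 6.68), which would hide a shift common to most genes. Detection calls, scan dates and slides are not given in the sources used here, and the number of arrays limits precision. Of 45101 probe sets, 64 controls were left out. Gene symbols came from the platform annotation and RefSeq (GRCm38.p6), and 34945 probe sets had 1 symbol, 932 several and 9160 none. A gene was read through its brightest probe set. Apart from that choice and the dim level, no probe set's level was set against another's.

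All 3 groups were fitted together with lmFit and eBayes of limma 3.58.1, under R 4.3.3, over 45037 probe sets, with Benjamini-Hochberg adjustment and a threshold of 0.05, after the script was tested on simulated data. Unless a sentence says otherwise, adjusted p-values are limma's. Folds against a level at or below 5.05 are lower bounds. Correlation p-values used 100000 permutations, two-sided. Named pathway genes were those with the largest called differences of each list, 3 per list and comparison, and marker lists are named by their first 3 genes. Alternatives left out each array and changed normalization, filter, arrays fitted, weights, prior, Gapdh covariate, probe sets, block, size of change and test. The receptors and lists were chosen with earlier results of these data known.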

Additional observations from a re-analysis of the deposited data

Results flagged for a closer look

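Cck, the cholecystokinin gene, was the only one of 17 receptor and ligand genes in which 1 Rb/p53 tumour stood far from the others. Rb/p53 tumour 8 read 6.35 on the log2 scale and the next highest tumour 5.41, a gap of 0.692 of the range of the group. Without that tumour Cck passed against normal lung in Rb/p53/p130 tumours (0.54, limma adjusted p = 0.045) and in Rb/p53 tumours (0.46, limma adjusted p = 0.038). The rule behind the flag is met by chance in about 1 of 20 groups. Since 17 genes were looked at, nothing is read from 1 flag. Both lungs and some tumours lay at or below the dim level in Cck, which limits what its differences from the lungs can show.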

How the results depend on the processing

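The count of receptors higher in Rb/p53/p130 tumours than in normal lung was 2 instead of 1 under quantile normalization, with the compared groups alone, with array weights and with probe sets averaged, Sstr5 being the added gene, and it was 1 to 2 when 1 array was left out. It was 0 with the Gapdh difference as a covariate and in the exact rank-sum test. In Rb/p53 tumours it was 0 in both of these and with the replicate block. The count of lower receptors was 0 in both comparisons in the exact rank-sum test, and with only probe sets above the median, which tested 1 of the 9 receptors and not Sstr4. The rank-sum test could not pass the threshold, since its smallest adjusted p was 0.331 for Rb/p53/p130 tumours and 0.095 for Rb/p53 tumours. The Gapdh covariate did not overlap between tumours and lungs, so nothing is read from calls kept or lost with it. The replicate block used the array numbers 1 and 2 that tumours and lungs share. Lungs came from wild-type mice and tumours from mice with deletions, so a shared number is no pair from 1 mouse. Correlations of deviations were -0.00426 and -0.0553 for numbers 1 and 2. With 2 lungs, whose deviations mirror each other, they cannot exclude another link. With the replicate block Sstr2 in Rb/p53 tumours was 1.14 (limma adjusted p = 0.0585).

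Sign changed in 51 values of 17 differences of single genes, 0 of which passed the threshold in either fit, and the cause was not tested. In Rb/p53 tumours against normal lung, the Gapdh covariate gave -0.41 for Cckbr, 0.07 for Grpr, 0.15 for Sstr3, -0.23 for Galr1, -0.34 for Cck, 0.12 for Nmb and -0.28 for Cort. The replicate block gave -0.53 for Cckbr, 0.21 for Sstr3 and 0.22 for Nmb, averaged probe sets -0.06 for Cckbr, 0.05 for Nmbr and 0.25 for Sstr3, and quantile normalization 0.01 for Sstr3. With 1 array left out, values ran from -0.05 to 0.18 for Cckbr, -0.11 to 0.05 for Sstr3, -0.09 to 0.03 for Nmb and -0.13 to 0.28 for Cort. For Rb/p53/p130 tumours and normal lung, the Gapdh covariate gave -0.42 for Cckbr, 0.11 for Grpr, 0.09 for Sstr3 and -0.43 for Cck. Averaged probe sets gave 0.01 for Nmbr, 0.24 for Sstr3 and 0.10 for Galr1, and quantile normalization 0.00 for Grpr and 0.02 for Galr1. With 1 array left out, values ran from -0.03 to 0.20 for Cckbr, -0.13 to 0.00 for Grpr and -0.11 to 0.01 for Galr1. Between the genotypes, array weights gave 0.02 for Cck, the Gapdh covariate 0.00 for Gast, quantile normalization 0.02 and median centring 0.03 for Sst, and leaving out 1 array -0.20 to 0.13 for Cck, -0.04 to 0.07 for Gast and -0.06 to 0.06 for Sst. Signal at or below the dim level limits Grpr, Sstr1 and Galr1, and Cck in both lungs and some tumours. Nmbr (5.02 to 5.57) and Sstr3 (5.12 to 5.76) lay close to that level.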
